A study of Mus musculus with 4 samples.

Results

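The genes described here make cholesterol and fatty acids. They were 39 named genes of both pathways, and each was represented by the probe whose annotated symbol, current or older, was that gene. A named probe was found for 36 of the 39, and 34 had a value on all 4 arrays and entered the test, among 13765 genes tested. They comprised 14 of 18 listed enzymes of the mevalonate and sterol pathway, 7 of 7 genes of sterol regulation and uptake, and 13 of 14 enzymes of fatty acid and glycerolipid synthesis. Acat2, Hmgcs1 and Fdps had no named probe and were not analysed here.

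The cells were NSCL61, a mouse glioma-initiating line derived from neural stem cells that lack p53 and overexpress an oncogenic HRas, labelled as C57BL6 brain cells of postnatal day 0. Cells carrying a short hairpin RNA (shRNA) against Eva1 (2 arrays) were compared with control cells (2 arrays), which the series title describes as expressing a control hairpin. Both groups share the p53-deficient, HRas-driven background. Hygromycin selection is given in the protocols of both groups alike, as 2 weeks in one place and 1 week in another. The labels do not say whether the hairpin cells were a single clone, nor whether replicate arrays stand for separate cultures. The p-values therefore reflect array-to-array spread that may be purely technical. The RNA came from bulk populations, in which a shift in the mix of cells and a shift within each cell cannot be told apart.

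Cholesterol is built from acetyl units through mevalonate, isoprenoid pyrophosphates, squalene and lanosterol. Fatty acids are built from the same acetyl units by acetyl-CoA carboxylase and fatty acid synthase, then desaturated and elongated. Both branches are driven by the sterol regulatory element-binding proteins (SREBPs), membrane-bound transcription factors. Scap escorts them to the Golgi for cleavage when sterols are low, and the Insig proteins hold Scap back when sterols are plentiful. SREBP2, the product of Srebf2, acts mainly on sterol genes, and SREBP1, the product of Srebf1, mainly on fatty acid genes. Brain cells make nearly all of their own cholesterol, and glioma cells are known to depend on a supply of sterols.

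The targeted gene, Mpzl2 (Eva1), had a log2 level of 5.86 ± 0.05 in control cells and of 2.73 ± 0.21 in Eva1 shRNA cells (SD, n = 2 each), in the direction the labels give. The arrays held values for 20662 to 21842 probes each. Levels below are log2 intensities after quantile normalization, and changes are Eva1 shRNA minus control on that log2 scale, each from 2 arrays a group (limma, two-sided, adjusted over all genes). Over all genes tested, 12.5% were called higher and 13.5% lower at adjusted p under 0.05, and the median change was -0.01.

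Among the 34 genes there were 8 rises and 3 falls, and 23 missed the threshold, where 26.0% of all genes were called in either direction. The rises were Mvk, Idi1, Cyp51 and Nsdhl among the sterol enzymes, Scap and Insig1 among the regulators, and Elovl6 and Fads2 among the fatty acid enzymes. The falls were Dhcr7, Insig2 and Vldlr. The share that rose was 23.5%, against 12.5% of all genes. The 4 arrays did not overlap between groups, in the higher direction, for 18 of the 34 genes, a pattern found in 32.6% of all genes tested, and in the lower direction for 5, a pattern found in 34.1%. With the authors' scaling in place of quantile normalization, 14 of the 34 rose and 1 fell. That scaling moved the median of all genes to 0.18, and the calls over all genes to 2714 higher and 1295 lower. Leaving out 1 array leaves 1 array in a group, and fewer genes were then called, both among the 34 and over all genes. The median change of the 34 lay between 0.23 and 0.25 in these fits, beside 0.21 with all arrays. Fewest of the 34 rose without Eva1 shRNA array 2, and Vldlr kept its fall in each case.

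**Figure D1:**
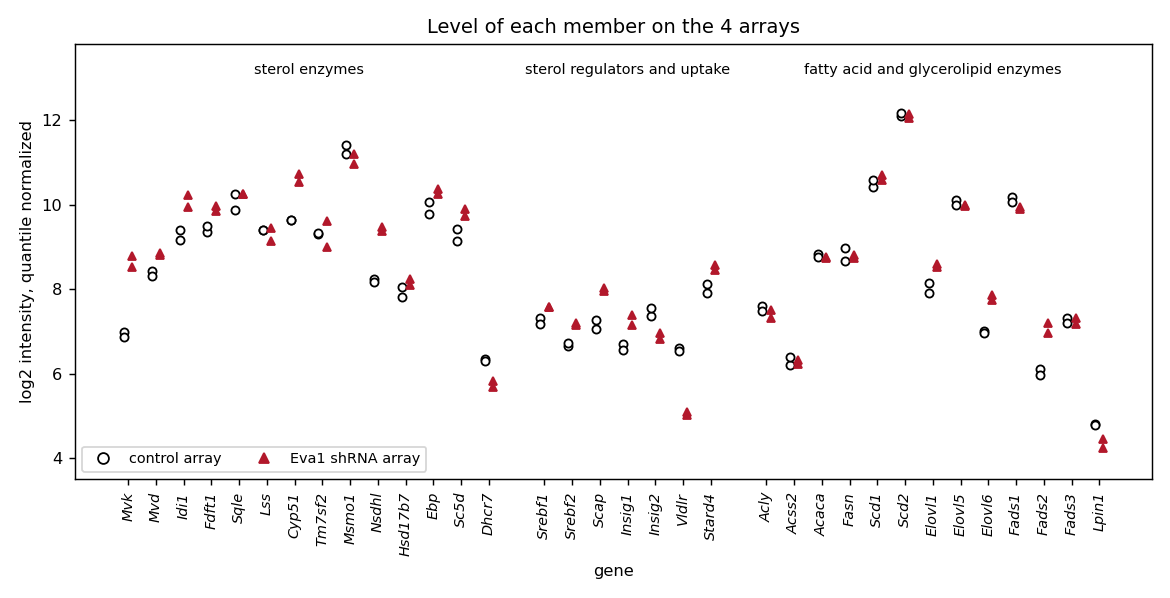
Log2 intensity after quantile normalization (y axis) of each of the 34 genes (x axis) on the 2 control arrays (open circles) and the 2 Eva1 shRNA arrays (triangles). The Mvk triangles, at 8.53 and 8.78, lie well above its circles at 6.87 and 7.00, and those of Vldlr, at 5.03 and 5.10, lie well below its circles at 6.53 and 6.60.

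The sterol branch was called at the kinase step early in the mevalonate pathway and at 3 later steps. Of its 14 tested enzymes, 4 rose, 1 fell and 9 did not pass, a share of 28.6% rising against 12.5% of all genes, and the median change was 0.42 (authors' scaling 0.58, median centring 0.37). With 1 array left out, fewer of these enzymes rose, as over all genes, and their median change lay between 0.37 and 0.46. The 250 bases before the annotated start site are shown for the 4 enzymes that rose and for Insig1, the SREBP brake that rose with them, because sterol genes are known to be read through short promoter elements close to the start. The sequences are RefSeq's for the mouse build GRCm38.p6: Mvk (chr5:114444019-114444268, plus strand), Idi1 (chr13:8885356-8885605, plus strand), Cyp51 (chr5:4104698-4104947, minus strand), Nsdhl (chrX:72918271-72918520, plus strand) and Insig1 (chr5:28071162-28071411, plus strand). Each is written 5′ to 3′ in the gene's direction, and capitals mark matches on either strand to CCAAT (the NF-Y box, ATTGG on the other strand), GGGCGG (the Sp1 box, CCGCCC on the other strand) and CACGTG (an E-box).
Mvk: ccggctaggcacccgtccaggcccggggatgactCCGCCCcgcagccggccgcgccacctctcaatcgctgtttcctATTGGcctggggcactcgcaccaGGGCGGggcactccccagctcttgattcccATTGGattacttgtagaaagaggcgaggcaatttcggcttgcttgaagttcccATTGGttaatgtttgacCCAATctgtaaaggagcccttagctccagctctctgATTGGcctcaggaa
Idi1: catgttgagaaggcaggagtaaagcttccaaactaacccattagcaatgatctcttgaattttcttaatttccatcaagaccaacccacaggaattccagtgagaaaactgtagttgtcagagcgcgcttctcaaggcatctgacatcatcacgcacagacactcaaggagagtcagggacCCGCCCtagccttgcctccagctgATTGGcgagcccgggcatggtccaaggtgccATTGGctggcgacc
Cyp51: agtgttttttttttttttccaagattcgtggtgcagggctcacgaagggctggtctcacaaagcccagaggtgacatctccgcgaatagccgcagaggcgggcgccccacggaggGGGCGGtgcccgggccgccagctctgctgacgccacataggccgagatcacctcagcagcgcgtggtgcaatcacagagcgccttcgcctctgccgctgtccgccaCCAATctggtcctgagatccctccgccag
Nsdhl: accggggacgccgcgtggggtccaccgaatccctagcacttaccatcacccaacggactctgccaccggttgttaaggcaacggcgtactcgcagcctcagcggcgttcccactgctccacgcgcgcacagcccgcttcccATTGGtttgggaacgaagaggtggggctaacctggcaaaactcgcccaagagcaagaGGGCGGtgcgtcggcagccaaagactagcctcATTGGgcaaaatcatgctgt
Insig1: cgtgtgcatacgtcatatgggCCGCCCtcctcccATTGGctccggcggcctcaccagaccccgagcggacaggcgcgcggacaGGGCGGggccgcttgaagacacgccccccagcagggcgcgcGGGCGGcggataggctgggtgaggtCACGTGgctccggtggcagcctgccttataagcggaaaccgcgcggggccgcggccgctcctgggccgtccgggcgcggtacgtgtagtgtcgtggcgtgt

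The printed Mvk stretch held 5 CCAAT matches, those of Idi1 and Nsdhl 2 each, and those of Cyp51 and Insig1 1 each. The match nearest the start began 14 bases before it in Mvk and Idi1, 20 in Nsdhl and 29 in Cyp51, against 216 in Insig1. RefSeq promoters were found for 32 of the 39 listed genes, some with several start sites. A CCAAT match lay in at least 1 such window of 14 of 15 sterol enzyme genes, 5 of 6 regulators and 6 of 11 fatty acid and glycerolipid genes, or 93.3%, 83.3% and 54.5%. Among the 8 genes that rose, 5 held it (62.5%, against 78.1% of the 32 listed genes), the 5 whose sequences are printed, while Scap, Elovl6 and Fads2 did not. Each sterol enzyme that was tested and did not pass, and has a promoter in the table, held it too. The share was 39.7% of the 11044 tested genes with a promoter in the table, and 33.8% of all 32851 promoters. GGGCGG lay in 14 of 15 sterol enzyme genes, 6 of 6 regulators and 6 of 11 fatty acid genes, against 57.1% of tested genes and 32.7% of all promoters. The median GC content of these windows was 62.6% for the sterol enzymes, 64.0% for the fatty acid genes and 58.4% for promoters of tested genes. CACGTG lay in 6 of the 32 genes (18.8%, against 9.19% of tested genes and 6.02% of all promoters), Insig1 and Scap among them. A form of the sterol regulatory element, TCACNCCAC, lay only in the window of Hmgcs1, a gene without a probe here, against 1.15% of tested genes and 1.05% of all promoters. Related forms, TCANNCCAC, CANCCCAC and TCACNCGA, lay in 2, 4 and 2 of the 32 genes, against 3.98%, 7.72% and 1.40% of tested genes (3.52%, 6.14% and 0.871% of all promoters). TCACGTGA lay in 0 of the 32, against 1.58% of tested genes and 0.785% of all promoters. These matches describe letters in a window; they are neither sites nor causes.

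Mvk, mevalonate kinase, phosphorylates mevalonate, the first product committed to isoprenoids. Its log2 levels were 7.00 and 6.87 in the control and 8.78 and 8.53 in the Eva1 shRNA cells. The groups lay far apart, with a change of 1.72 (SE 0.16, adjusted p = 0.0027), or 3.29-fold. Mvk passed the test under all 12 alternatives, at an adjusted p of at most 0.0258. Its neighbours in the pathway moved less. Mvd, which decarboxylates mevalonate pyrophosphate to isopentenyl pyrophosphate, had levels of 8.43 and 8.32 in the control and of 8.84 and 8.81 in the Eva1 shRNA cells. The groups did not overlap, but the change of 0.45 (SE 0.14) missed the threshold (adjusted p = 0.0658).

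Pmvk, the kinase between these enzymes, was blank on both control arrays, and its deposited intensities in the Eva1 shRNA cells were 1.91 and 1.79. Those values lie near the bottom of the arrays, whose lowest intensities were 1.19 to 1.44, so no change is given for Pmvk. Idi1, the isomerase that turns isopentenyl into dimethylallyl pyrophosphate, had log2 levels of 9.41 and 9.17 in the control and of 9.94 and 10.22 in the Eva1 shRNA cells. Both Eva1 shRNA arrays were above both controls, by 0.79 on average (SE 0.17, adjusted p = 0.0274). The call of Idi1 was lost whichever array was left out, with adjusted p from 0.0573 to 0.135.

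The 3 enzymes that form and cyclise squalene did not pass the test. Fdft1, squalene synthase, had levels of 9.36 and 9.50 in the control and of 9.98 and 9.85 in the Eva1 shRNA cells, a change of 0.48 (SE 0.15, adjusted p = 0.0637). Its groups did not overlap. Sqle, squalene epoxidase and a rate-limiting enzyme, had 10.26 and 9.87 in the control against 10.26 and 10.25, so that 1 control array stood at the level of the Eva1 shRNA arrays. The change of Sqle was 0.19, with a 95% interval of -0.26 to 0.65. Lss, lanosterol synthase, had a change of -0.09 (95% interval -0.50 to 0.32), its Eva1 shRNA levels of 9.45 and 9.15 enclosing the controls at 9.39 on both arrays.

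Lanosterol is then stripped of its methyl groups, and here rises stood beside genes that did not pass. Cyp51, the 14-alpha demethylase, had a log2 level of 9.64 on both control arrays, against 10.54 and 10.71 in the Eva1 shRNA cells. The deposited control intensities of Cyp51, 771 and 753, differed, and quantile normalization gave both the same value. It rose by 0.99 (SE 0.14, adjusted p = 0.00841), or 1.99-fold, and the call was lost without Eva1 shRNA array 2 (adjusted p = 0.0593). Tm7sf2, the sterol reductase of the next step, had the widest spread of the branch. Its levels were 9.31 and 9.33 in the control and 9.61 and 8.99 in the Eva1 shRNA cells, so the 2 hairpin arrays lay on opposite sides of the controls. The 95% interval of its change ran from -0.61 to 0.57.

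The C4 demethylation steps were uneven. Nsdhl, the sterol dehydrogenase of that complex, had levels of 8.24 and 8.18 in the control and of 9.48 and 9.38 in the Eva1 shRNA cells. It rose by 1.22 (SE 0.14, adjusted p = 0.00448), or 2.33-fold, and passed under all 12 alternatives. Msmo1, the methyl oxidase that acts with it, had 11.19 and 11.41 against 10.97 and 11.21, groups that overlapped, with a change of -0.21 (95% interval -0.63 to 0.21). Hsd17b7, the keto reductase, had a change of 0.23 (95% interval -0.16 to 0.63). Erg28, which tethers these enzymes to one another and was named after its value was seen, rose by 0.69 (adjusted p = 0.0252), a call lost whichever array was left out (adjusted p up to 0.137).

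The last steps ended in a fall. Ebp, the sterol isomerase, had a change of 0.40 (adjusted p = 0.136). Sc5d, the desaturase, had levels of 9.43 and 9.13 in the control and of 9.72 and 9.90 in the Eva1 shRNA cells, a change of 0.53 (SE 0.17, adjusted p = 0.0738) with no overlap. Dhcr7, the reductase that completes cholesterol, had 6.35 and 6.30 in the control and 5.69 and 5.82 in the Eva1 shRNA cells. Dhcr7 was the enzyme of the branch that fell, by 0.57 on the log2 scale (SE 0.14, adjusted p = 0.0365). Its fall was lost with the authors' scaling, with blank cells filled (each blank set to its array's lowest value), with the replicate number as a block, and whichever array was left out (adjusted p from 0.0805 to 0.182).

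**Figure D2:**
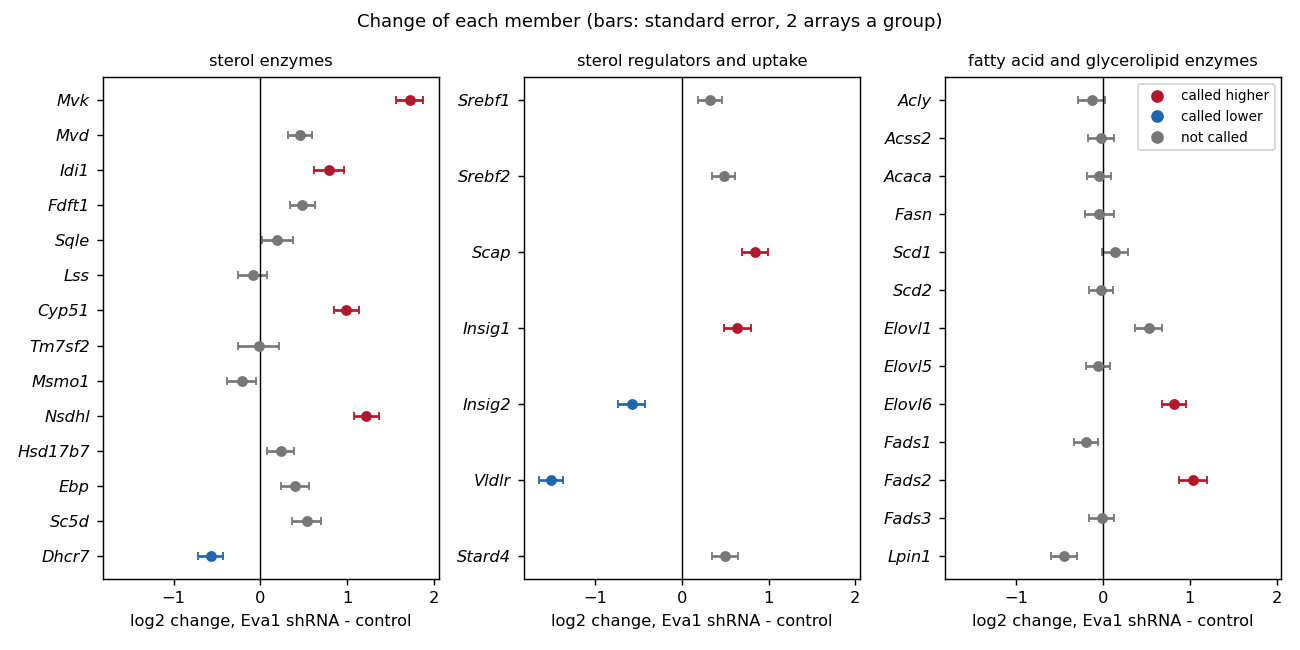
Log2 change, Eva1 shRNA minus control (x axis), of each gene (y axis) with its standard error, in 3 panels by role and in pathway order from top to bottom; red marks genes called higher, blue genes called lower and grey genes not called. Mvk at 1.72 and Nsdhl at 1.22 lead the sterol enzymes, while most fatty acid enzymes sit near 0, with Fads2 at 1.03 and Elovl6 at 0.82 apart from them.

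Among the 7 genes of regulation and uptake, the SREBP escort rose, the 2 Insig genes moved in opposite directions and the lipoprotein receptor gene Vldlr fell. In all, 2 rose, 2 fell and 3 did not pass, with a median change of 0.48. The shares over all genes were 12.5% rising and 13.5% falling. With 1 array left out, Scap without control array 1 was the only rise that kept its call, and Vldlr the only fall. Scap, the escort, had levels of 7.26 and 7.05 in the control and of 8.04 and 7.96 in the Eva1 shRNA cells. The groups lay apart, and Scap rose by 0.84 (SE 0.15, adjusted p = 0.0152), or 1.79-fold. That call was lost without control array 2 (adjusted p = 0.0534), Eva1 shRNA array 1 (0.0939) or Eva1 shRNA array 2 (0.0725).

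Insig1, the Insig gene that is itself a known SREBP target, had levels of 6.71 and 6.57 in the control and of 7.16 and 7.39 in the Eva1 shRNA cells. It rose by 0.64 (SE 0.16, adjusted p = 0.0371). Insig2, the paralogue with the same retaining function, had 7.37 and 7.56 in the control and 6.96 and 6.82 in the Eva1 shRNA cells. It fell by 0.58 on the log2 scale (SE 0.15, adjusted p = 0.0444), so the 95% intervals of the Insig genes, 0.24 to 1.04 and -0.96 to -0.20, lay on opposite sides of 0. Both signs held under all 12 alternatives, but both calls were lost with blank cells filled, with the replicate block and whichever array was left out. The adjusted p in those last fits ran from 0.081 to 0.177 for Insig1 and from 0.076 to 0.194 for Insig2. Insig2 lost its call under the authors' scaling too.

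The SREBP genes themselves stayed short of the threshold. Srebf2 had levels of 6.66 and 6.73 in the control and of 7.21 and 7.14 in the Eva1 shRNA cells, with no overlap and a change of 0.48 (SE 0.14, adjusted p = 0.0551). Srebf1 had 7.33 and 7.17 against 7.58 and 7.57, a change of 0.32 (SE 0.14, adjusted p = 0.154). Stard4, a carrier that moves cholesterol between membranes, had 8.11 and 7.91 against 8.46 and 8.57, a change of 0.50 (SE 0.15, adjusted p = 0.0628).

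Vldlr, the very low density lipoprotein receptor, which takes up lipoproteins and serves as a reelin receptor in the brain, had the largest fall of the 34 genes. Its levels were 6.60 and 6.53 in the control and 5.10 and 5.03 in the Eva1 shRNA cells. Every Eva1 shRNA array was below every control array, and the change was -1.50 (SE 0.14, adjusted p = 0.0027), or 2.84-fold lower. Vldlr passed under all 12 alternatives, with the highest adjusted p at 0.0264.

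The fatty acid branch lay mostly near 0, with rises at 1 elongase and 1 desaturase. Of its 13 tested enzymes, 2 rose, 0 fell and 11 did not pass (limma). At an unadjusted p under 0.05, 3 were higher and 1 lower, beside 2740 higher and 2786 lower of all 13765 genes. The median change was -0.03 (0.15 with the authors' scaling, under which the median of all genes was 0.18). The share that rose, 15.4%, stood near the 12.5% of all genes. Without either Eva1 shRNA array fewer of these enzymes rose, as over all genes, and the median change was -0.04 without array 1 and -0.02 without array 2.

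The supply and chain-building enzymes lay close to 0. Acly, which splits citrate into cytosolic acetyl-CoA, had a change of -0.13, Acss2, which makes acetyl-CoA from acetate, -0.03, Acaca, acetyl-CoA carboxylase, -0.04 and Fasn, fatty acid synthase, -0.04. The groups overlapped for each of the 4. Fasn, for example, had levels of 8.97 and 8.67 in the control and of 8.74 and 8.81 in the Eva1 shRNA cells. The 95% intervals of the 4 changes reached from -0.51 at the lowest to 0.37 at the highest, which bounds a change in these enzymes but does not show that there was none.

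The desaturase and elongase families split by member. Fads2, the delta-6 desaturase that opens the route to long polyunsaturated fatty acids, had levels of 6.12 and 5.97 in the control and of 6.96 and 7.20 in the Eva1 shRNA cells. It rose by 1.03 (SE 0.16, adjusted p = 0.00983), or 2.05-fold, a call lost without Eva1 shRNA array 2 (adjusted p = 0.0626). Fads1, the delta-5 desaturase that follows it, had a change of -0.20 (95% interval -0.55 to 0.16), and Fads3 had -0.01 (-0.38 to 0.35). The intervals of Fads1 and Fads3 did not reach that of Fads2, which began at 0.63. Scd1 and Scd2, the stearoyl-CoA desaturases that make monounsaturated fat, had changes of 0.14 and -0.03. The Scd2 levels lay between 12.05 and 12.16 on all 4 arrays, and signal shared between probes of such close paralogues was not excluded.

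Among the elongases, Elovl6, which lengthens palmitate to stearate, had levels of 7.00 and 6.95 in the control and of 7.74 and 7.85 in the Eva1 shRNA cells. It rose by 0.82 (SE 0.14, adjusted p = 0.0131), or 1.77-fold, a call lost without Eva1 shRNA array 1 (adjusted p = 0.0682) or array 2 (0.0831). Elovl1, which makes very long saturated chains, had 8.15 and 7.91 against 8.52 and 8.59, a change of 0.53 (SE 0.16, adjusted p = 0.0596) with no overlap. Elovl5, an elongase of polyunsaturated chains, had a change of -0.06 (95% interval -0.41 to 0.29). Of the glycerolipid enzymes, Lpin1, a phosphatidate phosphatase, had 4.80 and 4.78 against 4.45 and 4.23, a change of -0.45 (SE 0.15, adjusted p = 0.0815). Gpam, the mitochondrial glycerol phosphate acyltransferase, was blank on control array 1 and at 1.84 to 4.34 in deposited intensity on the others, so no change is given.

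Set side by side, the sterol enzymes had a median change of 0.42 and the fatty acid and glycerolipid enzymes of -0.03, a gap of 0.45. Taken for each Eva1 shRNA array against each control array, the median difference of the sterol enzymes was 0.30 to 0.50, and that of the fatty acid enzymes -0.06 to 0.02. The ranges did not meet. The gap of medians lay between 0.42 and 0.49 under 13 alternatives. The upper value came with the branches redrawn so that Srebf1 joined the fatty acid side, the other regulators joined the sterol side and Lpin1 left. By means the redrawing narrowed the gap instead. The branch means were 0.44 and 0.12 as first drawn, and 0.325 and 0.177 when redrawn, with Vldlr at -1.50 and Insig2 at -0.58 then on the sterol side. No p is attached to the gap, because the genes were chosen with results of these arrays known. Individual genes crossed the divide: Fads2 and Elovl6 rose by 1.03 and 0.82, beside 0.79 for the sterol enzyme Idi1, while Sqle, Lss, Tm7sf2 and Msmo1 overlapped between groups.

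**Figure D3:**
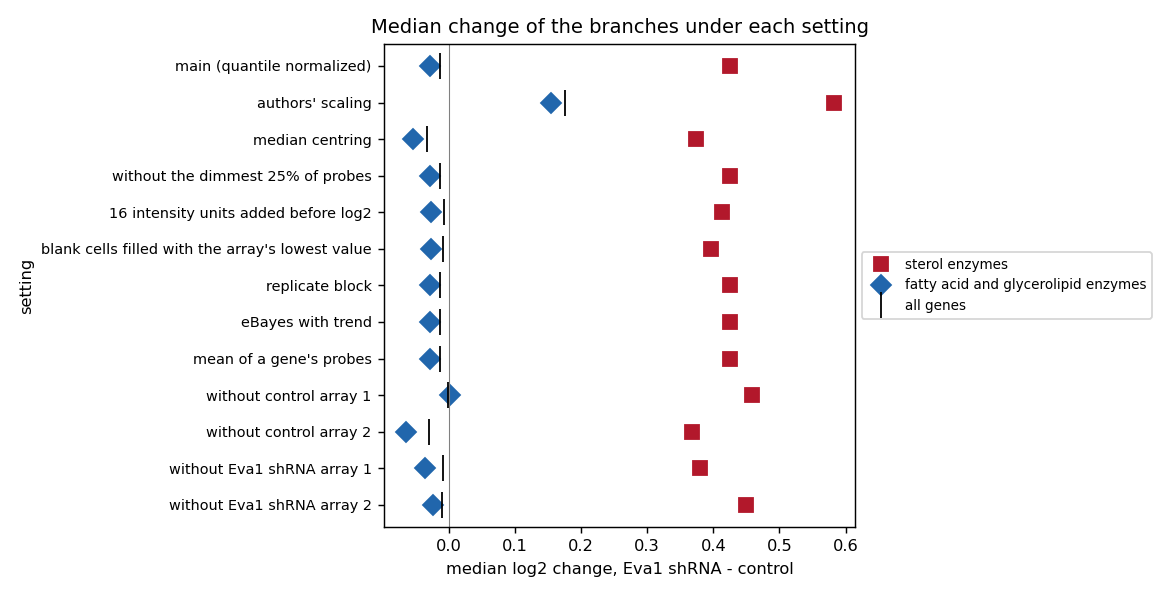
Median log2 change, Eva1 shRNA minus control (x axis), of the sterol enzymes (squares), the fatty acid and glycerolipid enzymes (diamonds) and all genes (bars) under the main setting and 12 alternatives (y axis). The squares lie between 0.37 and 0.58 and the diamonds between -0.07 and 0.15, and under the authors' scaling all 3 shift to the right together.

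Around the 2 pathways, genes that take up and move sterols fell more often than they rose. A list of 68 further pathway genes held 60 tested ones, of which 7 rose, 11 fell and 42 did not pass. The share that rose, 11.7%, was close to the 12.5% of all genes, of which 13.5% fell. Within that list, sterol uptake, transport, esterification and efflux had 17 tested genes, of which 1 rose and 6 fell, with a median change of -0.33. That median was -0.09 when 16 units were added to each intensity, a step that damps dim probes, and -0.69 without the dimmest 25% of probes. With 1 array left out, fewer genes of this list fell, as over all genes, and its median lay between -0.42 and -0.24. Npc1, the membrane protein that exports cholesterol from lysosomes, had levels of 10.57 and 10.47 in the control and of 8.28 and 8.40 in the Eva1 shRNA cells. It fell by 2.18 on the log2 scale (SE 0.14, adjusted p = 0.00124), or 4.54-fold. Npc2, the soluble carrier that hands cholesterol to it, had 12.59 and 12.53 against 11.49 and 11.53, a change of -1.05 (adjusted p = 0.00625), lost without Eva1 shRNA array 1 (0.0515). Lrp1, an endocytic receptor of lipoproteins, fell by 1.85 (SE 0.18, adjusted p = 0.003), from 8.64 and 8.41 to 6.83 and 6.52. Npc1 and Lrp1 passed under all 12 alternatives. Cd68, a lysosomal protein listed as a macrophage marker, fell beside them, by 1.17 (adjusted p = 0.0108). The 4 tested microglia and macrophage markers summed to 212 to 240 in deposited intensity in the control and 159 to 165 in the Eva1 shRNA cells, and Cd68 was the one whose intensity was lower on both Eva1 shRNA arrays than on both controls. The normalized changes of Csf1r and Cx3cr1 were 0.25 and 0.54, with no overlap between groups, and that of Aif1 was -0.09. None of these 3 passed, Itgam was blank on both Eva1 shRNA arrays, and the part of these markers in the result was not tested.

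The gene that rose in that list was Mylip, a ubiquitin ligase that marks lipoprotein receptors, Vldlr among them, for degradation. Its change of 1.26 (adjusted p = 0.0323) came from deposited intensities of 2.10 and 1.66 against 3.92 and 6.11. All but the 6.11 lay below 4.14, the 95th percentile of mean intensity among probes blank on some arrays. The change was 0.21 with 16 units added. The call of Mylip was also lost with blank cells filled and without control array 1 (adjusted p = 0.0641), control array 2 (0.112) or Eva1 shRNA array 2 (0.112). Stard3, Por and Plin2 were named after their values were seen. Stard3, a late endosomal cholesterol carrier, fell by 0.98 (adjusted p = 0.0116), lost without control array 1 (0.0515) or Eva1 shRNA array 1 (0.0768). Por, which passes electrons to Cyp51 and Sqle, fell by 0.95 (adjusted p = 0.0138), lost without control array 1 (0.0573), control array 2 (0.0509) or Eva1 shRNA array 1 (0.0816). Plin2, a lipid droplet coat protein, rose by 0.75 (adjusted p = 0.0217), lost without control array 2 (0.0682), Eva1 shRNA array 1 (0.118) or array 2 (0.0935).

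**Figure D4:**
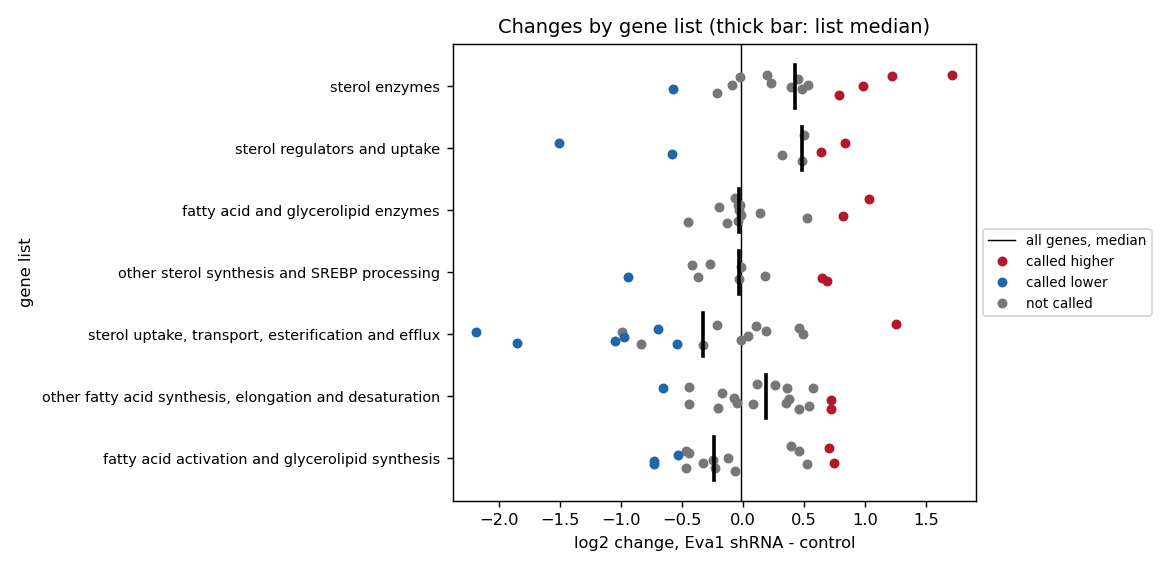
Log2 change, Eva1 shRNA minus control (x axis), of single genes (points) in 7 lists (y axis), with each list's median as a thick bar and the median of all genes, at -0.01, as a thin line; vertical scatter within a list has no meaning. The medians of the sterol enzymes, at 0.42, and of the regulators, at 0.48, are the highest of the 7, and the list of sterol uptake and transport reaches farthest left, to Npc1 at -2.18.

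Of the other synthesis lists, 2 of 9 tested genes of further sterol synthesis and SREBP processing rose and 1 fell. Further fatty acid synthesis, elongation and desaturation had 2 rises and 1 fall among 18, and fatty acid activation and glycerolipid synthesis 2 rises and 3 falls among 16. The shares that rose in these 3 lists were 22.2%, 11.1% and 12.5%, beside 12.5% of all genes, of which 13.5% fell. The proteases that cleave SREBPs, Mbtps1 and Mbtps2, had changes of -0.01 and -0.03, with overlapping groups. Of 16 tested markers of other brain and stromal cell types, the neuronal gene Tubb3 and the fibroblast gene Col1a2 rose, by 0.84 and 0.76, and Cd68 fell. Other markers on the same lists did not pass and lay elsewhere. Beside Col1a2, the fibroblast gene Dcn had a change of -2.02 (adjusted p = 0.0532), Lum of -0.56 and Col1a1 of -0.15, and beside Tubb3, the neuronal genes Syt1 and Snap25 had -0.56 and 0.13. The 3 tested of 5 oligodendrocyte markers, for a cell type that makes much cholesterol, summed to 64.7 to 66.7 in deposited intensity in the control and 69.9 to 78.8 in the Eva1 shRNA cells, on the authors' scale, where the median of all genes was 0.18 higher. After quantile normalization the changes of Mbp, Mag and Cldn11 were -0.21, -0.0034 and 0.50, and each missed the threshold. The astrocyte markers Gfap, Aqp4 and Slc1a3 were each blank on 2 or 3 of the 4 arrays. Of 5 tested neural stem markers, which bear on the line's label, Vim was bright on all arrays, Fabp7 and Sox9 fell, and Nes, Msi1 and Vim did not pass. The part of these markers in the results was not tested.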

How the data were processed

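Values were deposited as 1-colour intensity on a linear scale, with Cy5 as the dye per the labels, for 4 arrays of a 3D-Gene mouse chip. The values show that the authors scaled each array to a median near 25 and left some probes blank. The blank share was 12.0% and 10.8% on the control arrays, and lower, 6.95% and 8.35%, on the Eva1 shRNA arrays. How the chips were scanned, background-corrected and blanked is not given in the sources used here.

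Of 23473 probes, 16631 had 1 gene symbol, 0 several and 6842 none; 3947 symbols were updated through RefSeq (GRCm38.p6). Log2 intensities of the 19199 probes filled on all 4 arrays were quantile normalized, since array medians differed by 0.27. Each gene took its brightest probe; every gene of the 39 had at most 1 probe. Groups were compared with limma 3.58.1 (R 4.3.3; lmFit and eBayes without trend, 2 residual degrees of freedom, two-sided, Benjamini-Hochberg over 13765 genes, threshold 0.05). The number of arrays limits the precision.

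The genes, branches and lists were chosen with earlier results of these data known, and lists are described by counts and medians without a set test. Values are given in full for genes that passed or changed by at least 0.5, for isozymes, and for further pathway genes that passed with a change of at least 1; others were named after their values were seen. Motif forms were chosen while the promoters were searched, on both strands. The replicate numbers share no stated culture, so the block is an alternative. Only the model fit was tested on simulated data, and normalization, the handling of blanks and the choice of probes were not. Figures used matplotlib 3.10.9 (Python 3.11.15).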

Additional observations from a re-analysis of the deposited data

How the results depend on the processing

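The gap between the branch medians, 0.45, kept its direction under all 13 alternatives and lay between 0.42 and 0.49. It moved by less than the combined spread of the 2 branch medians between replicate arrays (SD 0.069). That SD treats the branches as independent. They share arrays and moved together between replicates. The sterol and fatty acid medians, relative to the control means, were 0.03 and 0.05 on control array 1 and -0.03 and -0.05 on control array 2. On Eva1 shRNA arrays 1 and 2 they were 0.45 and -0.02, and 0.38 and -0.04. The SD therefore overstates the spread of the gap, and staying below it does not show that the gap is stable. The fits without 1 array reuse the same arrays and are no separate check. Among the 34 genes, 3 calls (Mvk, Nsdhl and Vldlr) held under all 12 alternatives, 8 were lost under at least 1, and 9 of the 23 genes not called passed under at least 1; no called change reversed. Mvd, Fdft1, Sc5d, Srebf2, Stard4 and Elovl1, at adjusted p from 0.0551 to 0.0738, passed under 4 each. With the authors' scaling, 2714 genes in all were higher. The 34 genes had 14 rises and 1 fall, the sterol enzymes 7 and 0, the regulators 4 and 1, and the further pathway genes 12 and 5. Without the dimmest 25% of probes, rises were 14 of the 34, 7 sterol enzymes, 4 regulators and 12 further genes, and 1 fatty acid enzyme (Lpin1) was lower. With 16 units added they were 16, 8, 5 and 11, and with eBayes trend 15, 8, 4 and 12. The shares of all genes that rose under these settings, in that order, were 21.1%, 17.8% and 18.1%, against 12.5% in the main fit. With blank cells filled, 1 of the 34 fell, 0 sterol enzymes fell, regulators had 1 rise and 1 fall, and further genes 2 and 5. Over all 16091 genes then tested, 1304 were higher and 1442 lower. With the replicate block, 1 of the 34 fell, 0 sterol enzymes fell and regulators had 1 rise and 1 fall. Deviations of same-numbered arrays correlated at -0.02, so no pairing showed across genes. A correlation from 2 arrays a group cannot exclude a shared culture or batch. The block changed no count over all genes by 1.5 times (1471 higher, 1631 lower). Leaving out 1 array gave 510 to 1190 higher and 696 to 1212 lower genes in all, 2 to 6 rises and 1 fall of the 34, 2 to 3 rises and 0 falls of sterol enzymes, 0 to 2 rises of fatty acid enzymes with 0 falls, 0 to 1 rises and 1 fall of regulators, and 0 to 2 rises and 2 to 6 falls of further genes. The cause of these changes was not tested; the last setting has fewer arrays. Intensities near the lowest of an array, as for Pmvk, Gpam, Mylip and Soat2, give no firm size of change.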
